A study of Mus musculus with 6 samples.

Results

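The enzymes that release arachidonic acid from membrane phospholipids and turn it into prostaglandins and leukotrienes were followed in whole colon of mice with and without NHE3, the sodium-hydrogen exchanger of the luminal membrane encoded by Slc9a3. The set consisted of 10 named genes: the phospholipases A2 Pla2g2a, Pla2g5, Pla2g4a and Pla2g4c, the cyclooxygenases Ptgs1 and Ptgs2, the prostaglandin E synthase Ptges, the prostaglandin dehydrogenase Hpgd, the lipoxygenase Alox15 and the 5-lipoxygenase-activating protein Alox5ap. Every probe set whose platform annotation names exactly 1 gene, that gene being in the set, was taken. This gave 14 probe sets for 9 of the 10 genes, out of 18194 genes named in this way on the array. The annotation used names no probe set for Ptgs1, which was not analysed here. The genes were put together with the result of the genotype comparison known, so their differences between genotypes are given below as a description, with standard errors and without p-values.

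Phospholipases A2 cut the middle acyl chain of a phospholipid. The cytosolic group IV enzymes act inside the cell, and Pla2g4a is the one classically tied to arachidonate release, while the secreted enzymes, Pla2g2a and Pla2g5 among them, act outside it and on bacterial membranes. Cyclooxygenases then make prostaglandin H2, Ptges converts it to prostaglandin E2, and Hpgd inactivates that product. Alox5ap presents arachidonate to 5-lipoxygenase for leukotriene synthesis. In the gut, prostaglandin E2 is known for its effects on epithelial repair and on chloride secretion.

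There were 6 Affymetrix MOE430 2.0 arrays, 3 labelled NHE3+/+ (wild-type littermates) and 3 labelled NHE3-/- (NHE3-deficient), all from dissected whole colon of mice aged 6 to 8 weeks. The sources used here give no strain, sex or treatment, and do not tie an array to an animal. Standard errors and p-values therefore measure only how far these samples lie apart, and that spread may be technical. In such bulk tissue, fewer cells of a type and less RNA per cell cannot be told apart. Values are the deposited signals on a linear scale. Differences are on the scale log2(signal + 31.4), NHE3-/- minus NHE3+/+. On this scale the change of a dim transcript comes out too small.

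Of the 14 probe sets, 9 passed a filter on low signal (mean log2 value at or above the 40th percentile of all probe sets) and 5 did not. The 5 were both probe sets of Ptgs2, the single probe set of Alox15, and the dimmer 2 of the 3 probe sets of Ptges. The 9 that passed represent 7 genes. In the limma fit over all 27024 probe sets that passed the filter, 2 member probe sets lay past the adjusted threshold of 0.05 on the higher side and 1 on the lower side. For all probe sets tested these shares were 4.97% and 6.24%, and 11.2% in either direction. As the set was chosen on this contrast, nothing is read from the difference. The median log2 difference was -0.05 over the 9 member probe sets and -0.10 over all probe sets tested.

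**Figure D1:**
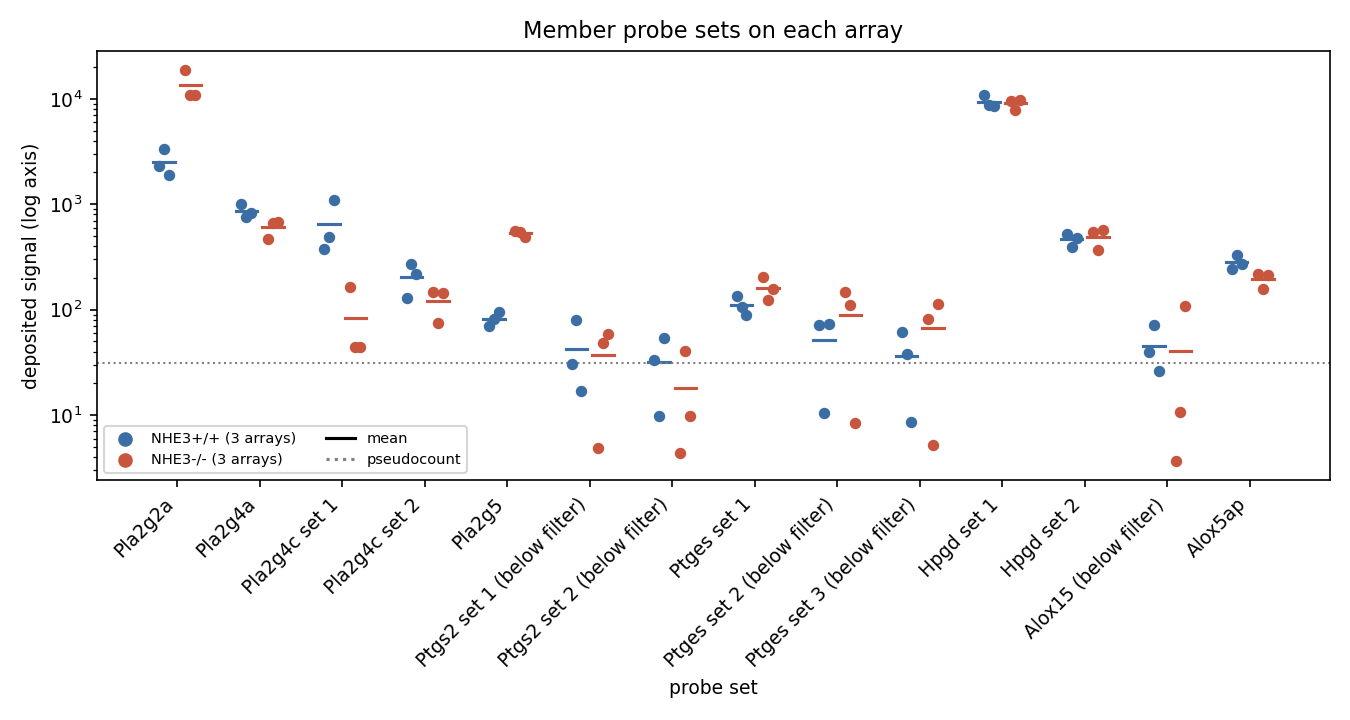
Deposited signal (log axis) of the 14 member probe sets on each of the 6 arrays, with the mean of each genotype as a line and the pseudocount of 31.4 as a dotted line. The NHE3-/- arrays lie above all NHE3+/+ arrays for Pla2g2a and Pla2g5 and below them for Pla2g4a, Alox5ap and the brighter probe set of Pla2g4c (set 1).

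Some facts of the whole series bear on these values. Xist, the RNA of the inactive X chromosome of females, had with 1 of its probe sets a signal of 2639 and 1929 on NHE3-/- arrays 1 and 2. That probe set had 12.3 on NHE3-/- array 3 and between 2 and 8 on the NHE3+/+ arrays. The Y-linked Eif2s3y, with its brighter probe set, had 932.6, 1088 and 1355 on NHE3-/- arrays 1, 2 and 3 and 1434, 1457 and 1809 on the NHE3+/+ arrays, so both kinds of transcript were read on NHE3-/- arrays 1 and 2. Differences of the member probe sets past the filter are therefore also given for NHE3-/- array 3 alone against the 3 NHE3+/+ arrays. The brighter probe set of Slc9a3 had signals of 5908, 5647 and 6669 on NHE3+/+ arrays and 5970, 4266 and 3665 on NHE3-/- arrays. Its log2 difference was -0.42 (SE 0.16, limma adjusted p = 0.120). The dimmer probe set of Slc9a3 had 345.6, 344.8 and 107.8 against 473.4, 608.7 and 264.9. Its log2 difference was 0.76 (SE 0.39, limma adjusted p = 0.230), in the other direction. Where the gene was interrupted is not stated in the labels, so neither probe set is a check of them. With the array medians set equal, the median log2 difference of all tested probe sets was 0.01 instead of -0.10, and 68.4% instead of 44.3% of all calls were on the higher side (50.1% after quantile normalization).

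Of the members, the secreted phospholipases Pla2g2a and Pla2g5 had the largest differences upward. Pla2g2a, the group IIA enzyme that kills Gram-positive bacteria and is made by secretory cells of the gut, had signals of 2327, 3336 and 1894 on the NHE3+/+ arrays and of 18631, 10814 and 10829 on the NHE3-/- arrays. All 3 NHE3-/- arrays were above all 3 NHE3+/+ arrays, and NHE3-/- array 1 was the highest. The mean went from 2519 ± 740 to 13425 ± 4509 (SD, n = 3 each), 5.33-fold, with a log2 difference of 2.39 (SE 0.23). The difference ran from 2.13 without NHE3-/- array 1 to 2.61 without NHE3+/+ array 2, and was 2.13 with NHE3-/- array 3 alone. In the reference assembly GRCm38.p6, which is of strain C57BL/6J, RefSeq classes Pla2g2a as a transcribed pseudogene. Some inbred strains are known to carry a disrupted copy of this gene, which is also known as Mom1, a modifier of intestinal tumour number. The probe set reads RNA, so its signal does not tell whether enzyme was made.

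Pla2g5, the group V secreted enzyme, lies beside Pla2g2a on chromosome 4. Its signals were 70.2, 81.5 and 95.7 on the NHE3+/+ arrays and 554.4, 548.3 and 485.8 on the NHE3-/- arrays. The genotypes did not overlap, and the arrays within each genotype lay close together. The mean went from 82.5 ± 12.8 to 529.5 ± 38.0 (SD, n = 3 each), 6.42-fold, with a log2 difference of 2.30 (SE 0.20). It stayed between 2.22 and 2.39 when any 1 array was left out and was 2.19 with NHE3-/- array 3 alone. Across all 15 alternative settings it ran from 1.79 (pseudocount 100) to 2.48 (pseudocount 16).

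The neighbours of this pair were not alike. Along chromosome 4 the order in RefSeq is Ubxn10, Pla2g2c, Pla2g2f, Pla2g2d, Pla2g5, Pla2g2a, Gm13030, Pla2g2e, Otud3, Rnf186 and Tmco4, and all but Gm13030 had a probe set of their own. None of the 6 neighbours of the pair that passed the filter through their representative (brightest) probe set reached the threshold (limma; 0 of the 6 representatives had an unadjusted p under 0.05), and Ubxn10 and Pla2g2e were below the filter. Pla2g2c had signals of 124.9, 195.3 and 187.4 against 239.9, 222.5 and 275.7, a log2 difference of 0.48 (SE 0.22, limma adjusted p = 0.187). Its genotypes did not overlap, which was the case for 32.3% of all probe sets tested. Pla2g2f had 0.50 (SE 0.29) and Pla2g2d -0.43 (SE 0.45), both with overlapping arrays. A second probe set of Pla2g2f had signals of 67.8, 26.1 and 128.1 against 132.4, 201.4 and 258.5, without overlap, a log2 difference of 1.20 (SE 0.38, limma adjusted p = 0.0656). The flanking genes outside the phospholipase row had log2 differences of -0.15 for Otud3 (SE 0.14), 0.15 for Rnf186 (SE 0.12) and 0.24 for Tmco4 (SE 0.18). The neighbours were chosen by position alone.

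**Figure D2:**
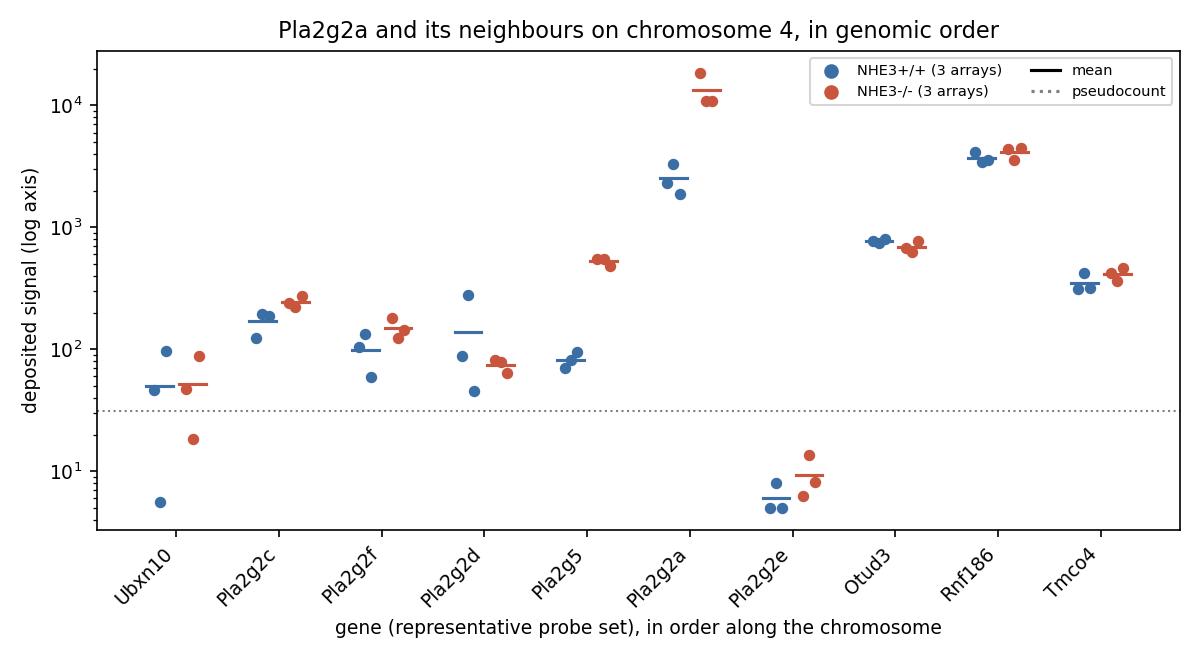
Deposited signal (log axis) of Pla2g2a and the neighbouring genes with a probe set, in their order along chromosome 4, on the 3 NHE3+/+ and 3 NHE3-/- arrays; lines are genotype means and the dotted line is the pseudocount. Pla2g5 and Pla2g2a are widely separated between genotypes, and the genes on either side are not.

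The stretches upstream of the annotated starts of Pla2g5 and Pla2g4c (RefSeq, GRCm38.p6) are shown because these members differed widely between the genotypes, in opposite directions. Each is the 250 bases before an annotated start, and capitals mark stretches of at least 12 bases that occur more than once, without overlap, in that window. Which start is used in colon was not tested. The upstream start of Pla2g5 is preceded by chr4:138863470-138863719 (minus strand) and the downstream start by chr4:138819258-138819507 (minus strand). The starts of Pla2g4c are preceded by chr7:13325417-13325666 and chr7:13329072-13329321 (plus strand).
Pla2g5, upstream start: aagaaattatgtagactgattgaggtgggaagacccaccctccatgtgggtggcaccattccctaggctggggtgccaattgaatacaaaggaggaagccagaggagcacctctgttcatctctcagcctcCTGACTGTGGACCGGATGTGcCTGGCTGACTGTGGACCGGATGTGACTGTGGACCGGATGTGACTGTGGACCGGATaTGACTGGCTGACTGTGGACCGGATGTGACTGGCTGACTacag
Pla2g5, downstream start: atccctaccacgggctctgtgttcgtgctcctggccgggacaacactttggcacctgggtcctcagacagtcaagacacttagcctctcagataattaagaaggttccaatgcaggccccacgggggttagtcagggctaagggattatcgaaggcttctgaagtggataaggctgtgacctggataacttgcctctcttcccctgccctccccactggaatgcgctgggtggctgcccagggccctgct
Pla2g4c, first start: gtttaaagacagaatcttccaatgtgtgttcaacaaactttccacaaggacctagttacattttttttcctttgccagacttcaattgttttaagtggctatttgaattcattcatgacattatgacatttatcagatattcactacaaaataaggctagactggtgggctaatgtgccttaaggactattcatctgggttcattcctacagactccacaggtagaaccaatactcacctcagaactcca
Pla2g4c, second start: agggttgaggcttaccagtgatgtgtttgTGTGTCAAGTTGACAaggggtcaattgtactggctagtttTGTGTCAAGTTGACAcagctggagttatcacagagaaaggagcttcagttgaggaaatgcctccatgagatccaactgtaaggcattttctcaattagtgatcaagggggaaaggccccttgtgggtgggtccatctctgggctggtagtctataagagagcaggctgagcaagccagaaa
Repeats covered 113 bases of the window at the upstream start of Pla2g5 and 30 bases at the second start of Pla2g4c, and 6.91% of 32851 such windows in the table hold a repeat of this kind. These 250-base windows were also searched on both strands for 6 motifs: the TATA box (TATAAA, in 12.4% of all windows), a STAT motif (TTCNNNGAA, 7.02%), an AP-1 motif (TGANTCA, 6.75%), the NF-kappaB consensus (3.9%), a steroid receptor half-site (TGTTCT, 16.1%) and a CDX motif (TTTATG, 10.8%). None of the 4 windows held a match to any of the 6, which says only that these letters are not in these windows.

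The cytosolic phospholipases among the members, Pla2g4c and Pla2g4a, lay on the other side. Pla2g4c, the group IVC enzyme, had signals of 372.4, 492.6 and 1096 on the NHE3+/+ arrays and of 163.6, 44.7 and 44.6 on the NHE3-/- arrays with its brighter probe set. The genotypes did not overlap, but each held an array apart from the rest, NHE3+/+ array 3 at the top and NHE3-/- array 1 above its group. The mean was 654 ± 388 on the NHE3+/+ and 84.3 ± 68.7 on the NHE3-/- arrays (SD, n = 3 each), with a log2 difference of -2.57 (SE 0.42). The signals of NHE3-/- arrays 2 and 3 lay under the level of the filter, 60.2, so the size of the difference depends on the pseudocount: it was -2.79 with a pseudocount of 16 and -1.97 with 100. It ran from -3.03 without NHE3-/- array 1 to -2.14 without NHE3+/+ array 3, and was -3.03 with NHE3-/- array 3 alone. Its second probe set gave a smaller difference. There the signals were 127.9, 270.5 and 219.6 against 146.7, 74.6 and 143.2, the genotypes overlapped, and the log2 difference was -0.62 (SE 0.31). With NHE3-/- array 3 alone that difference was -0.39.

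Pla2g4a, the group IVA enzyme, had signals of 1010, 760.5 and 824.4 on the NHE3+/+ arrays and of 472.4, 660.8 and 675.1 on the NHE3-/- arrays. All 3 NHE3-/- arrays were lower than all 3 NHE3+/+ arrays, with NHE3-/- array 1 the lowest. The log2 difference was -0.51 (SE 0.17) and ran from -0.59 without NHE3-/- array 3 to -0.35 without NHE3-/- array 1. It was -0.33 with NHE3-/- array 3 alone and -0.39 with the medians set equal. Ptgs2 lies next to Pla2g4a on chromosome 1 and is described below.

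The enzymes downstream of arachidonate release had smaller log2 differences or lay below the filter. Ptgs2, the inducible cyclooxygenase, had signals of 30.7, 80 and 16.8 on the NHE3+/+ arrays and of 4.9, 48.8 and 58.3 on the NHE3-/- arrays with its brighter probe set. The other probe set had 33.1, 9.8 and 53.4 against 4.4, 40.2 and 9.8. Both were below the filter, both overlapped between genotypes, and they did not rank the arrays alike, so no difference is given for Ptgs2. A signal this low does not show that Ptgs2 RNA was absent.

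Ptges, the inducible prostaglandin E synthase, was read by 3 probe sets, of which 1 passed the filter. That one had signals of 135.5, 106.2 and 88.5 against 205.6, 123.5 and 155.8. NHE3-/- array 2 lay below NHE3+/+ array 1, so the genotypes overlapped, and the log2 difference was 0.44 (SE 0.26). It remained between 0.28 and 0.59 when 1 array was left out and was 0.42 with NHE3-/- array 3 alone. The 2 dimmer probe sets ranged from 8.5 to 147.5 and from 5.2 to 112.8 over the 6 arrays.

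Hpgd, which starts the breakdown of prostaglandin E2, did not separate the genotypes. Its brighter probe set had signals of 10833, 8674 and 8607 on the NHE3+/+ arrays and of 9482, 7897 and 9707 on the NHE3-/- arrays. The genotypes overlapped fully, with a log2 difference of -0.05 (SE 0.12) that turned to 0.07 with the medians set equal and was -0.24 after quantile normalization. The dimmer probe set had 518.2, 396.9 and 480.7 against 539.5, 364.4 and 566.8, a log2 difference of 0.06 (SE 0.19). Both are within their standard errors of 0. With NHE3-/- array 3 alone the difference was 0.06 for the brighter and 0.28 for the dimmer probe set. The brighter probe set bears the suffix that Affymetrix gives to probe sets shared by several transcripts.

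Alox15, the mouse 12/15-lipoxygenase of macrophages and eosinophils, was below the filter. Its signals were 39.5, 71.3 and 26.2 on the NHE3+/+ arrays and 3.7, 10.7 and 107.5 on the NHE3-/- arrays. The latter spanned the former, with NHE3-/- array 3 the highest of all 6.

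Alox5ap was lower on every NHE3-/- array. Its signals were 243, 328.1 and 269.9 on the NHE3+/+ arrays and 220.1, 158.8 and 213.4 on the NHE3-/- arrays. The log2 difference was -0.45 (SE 0.21), between -0.54 and -0.32 when any 1 array was left out, -0.34 with NHE3-/- array 3 alone and -0.27 after quantile normalization. Over the whole set, 2 probe sets had all NHE3-/- arrays above all NHE3+/+ arrays and 3 had them all below, among the 9 that passed the filter. For all probe sets tested, 12.2% were wholly higher and 20.1% wholly lower.

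**Figure D3:**
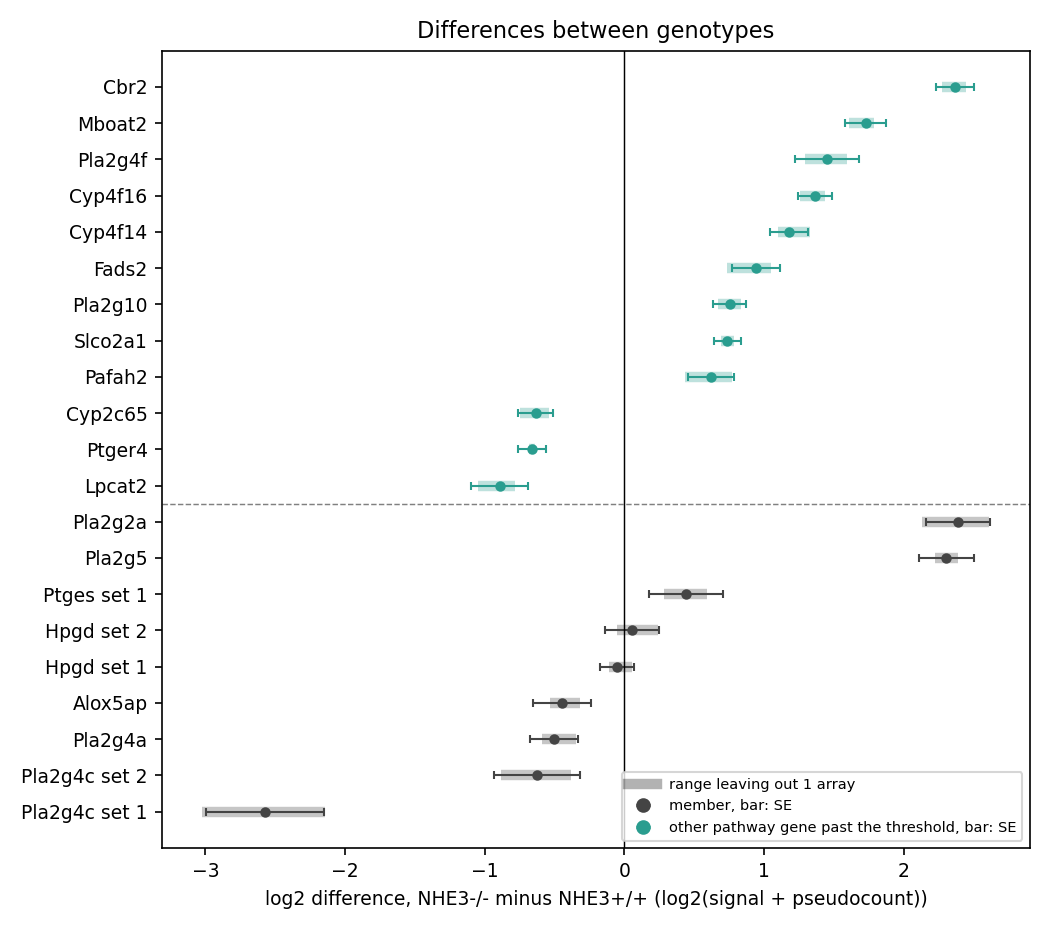
Log2 difference (NHE3-/- minus NHE3+/+, log2(signal + 31.4)) with its standard error for the 9 member probe sets past the filter (grey, below the dashed line) and for the 12 other genes of arachidonate metabolism past the limma threshold (green); wide bars show the range when 1 array was left out. Pla2g2a and Pla2g5 lie at 2.39 and 2.30, the brighter probe set of Pla2g4c at -2.57, and the remaining 6 member probe sets between -0.62 and 0.44.

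To place the members in their pathway, 113 other genes of arachidonate metabolism were listed in 6 groups by function. Of these, 77 had a representative probe set (the brightest that names the gene alone) past the filter. In NHE3-/- colon 9 rose and 3 fell at a limma adjusted p under 0.05, and 65 did not pass. This is 15.6% called, against 13.9% of 12553 genes represented in the same way, so the share as a whole was near the background. By direction the background was 6.38% higher and 7.51% lower. The median log2 difference of the 77 was 0.11. After quantile normalization 9 were called higher and 6 lower.

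Among the other phospholipases A2 and related enzymes, 3 of 22 genes past the filter rose and 0 fell (limma; 4 had an unadjusted p under 0.05 on the lower side). Pla2g4f, a cytosolic enzyme of the same group IV as Pla2g4a and Pla2g4c, had signals of 106.3, 94.6 and 146.4 on the NHE3+/+ arrays and of 328.4, 321.3 and 465.2 on the NHE3-/- arrays. It rose by a log2 difference of 1.45 (SE 0.23, limma adjusted p = 0.00299). Pla2g10, the secreted group X enzyme, had a mean of 5275 ± 560 in NHE3+/+ and 8905 ± 889 in NHE3-/- colon (SD, n = 3 each) and rose by a log2 difference of 0.75 (SE 0.12, limma adjusted p = 0.0025). Pafah2, a platelet-activating factor hydrolase, rose by 0.62 (SE 0.16, limma adjusted p = 0.0351), but its call was lost in 7 of 15 alternative settings, among them the fits without each of the 3 NHE3+/+ arrays and without NHE3-/- array 1 or 3, with an adjusted p from 0.0136 to 0.120. Group IV thus held members in both directions: Pla2g4f past the threshold at 1.45, the brighter Pla2g4c probe set at -2.57, and Pla2g4d (0.45, SE 0.33), Pla2g4e (0.27, SE 0.52) and Pla2g4a (-0.51, SE 0.17) not past it. Of the secreted enzymes outside the chromosome 4 row, Pla2g10 passed the threshold, as given above. Pla2g12a had -0.67 (SE 0.24), Pla2g3 -0.32 (SE 0.19) and Pla2g12b 0.38 (SE 0.26), none past it, and Pla2g1b was below the filter.

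In the group for arachidonate supply and re-acylation, 2 of 19 genes rose and 1 fell. Mboat2, an acyltransferase that puts fatty acids back onto lysophospholipids, had signals of 370.3, 440.3 and 404 against 1298, 1291 and 1670. It rose by 1.73 (SE 0.15, limma adjusted p = 6.7e-05), while a dimmer probe set had 0.43 (SE 0.23) and was not called. Fads2, the delta-6 desaturase of polyunsaturated fatty acid synthesis, rose from 1294 ± 305 to 2472 ± 270 (SD, n = 3 each), by 0.94 (SE 0.17, limma adjusted p = 0.00627). This call was lost without the mean-variance trend (limma adjusted p = 0.0557, and from 0.00247 over the 15 settings). Another Fads2 probe set also passed, at 0.71 (SE 0.13), and the last had 0.23 (SE 0.23). Lpcat2, an acyltransferase that also makes platelet-activating factor, fell by 0.89 on the log2 scale (SE 0.21, limma adjusted p = 0.0193), and its other probe set had -0.51 (SE 0.23). The call was lost in 6 of 15 alternative settings, including those without NHE3+/+ array 1 or 2, without NHE3-/- array 1 or 3, and with NHE3-/- array 3 alone, with an adjusted p from 0.016 to 0.0683.

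Of the prostanoid synthases and inactivating enzymes, 1 of 10 rose and 0 fell (limma; 1 had an unadjusted p under 0.05 on the lower side). Cbr2, a carbonyl reductase, had signals of 478.6, 467.8 and 385.2 on the NHE3+/+ arrays and of 2586, 2499 and 2159 on the NHE3-/- arrays. It rose by 2.37 (SE 0.14, limma adjusted p = 5.5e-06), and stayed between 2.27 and 2.44 when 1 array was left out. The prostaglandin E synthase Ptges2 (0.22, SE 0.13) and the prostaglandin D synthase Hpgds (0.24, SE 0.25) did not pass. Nor did Akr1c18, with signals of 217.7, 321.7 and 399.8 against 158, 149 and 27.4. Its log2 difference was -1.41 (SE 0.41, limma adjusted p = 0.0505). In the whole group, 3 genes were higher and 1 lower at an unadjusted limma p under 0.05.

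Prostanoid receptors and transporters gave 1 higher and 1 lower of 7 genes past the filter. Ptger4, the EP4 receptor for prostaglandin E2, had signals of 2984, 2898 and 2830 on the NHE3+/+ arrays and of 1876, 1757 and 1833 on the NHE3-/- arrays. The arrays were tightly grouped within each genotype, and Ptger4 fell by 0.66 on the log2 scale (SE 0.10, limma adjusted p = 0.00235), with -0.65 for NHE3-/- array 3 alone. Its second probe set had -0.60 (SE 0.20, limma adjusted p = 0.0862). Of the other prostaglandin E2 receptors, Ptger3 had signals of 127.8 to 205.2 over the 6 arrays (log2 difference -0.19, SE 0.24), and Ptger1 and Ptger2 were below the filter at 3.3 to 52.6 and 8.2 to 87. Slco2a1, the carrier that takes prostaglandins into cells for breakdown, had signals of 3562, 3785 and 4081 against 6332, 6137 and 6602. It rose by 0.74 (SE 0.10, limma adjusted p = 0.00107). Of its 3 other probe sets, 1 passed at 0.95 (SE 0.11) and the others had 0.53 (SE 0.18) and 0.35 (SE 0.15).

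Among lipoxygenase and leukotriene genes, 0 of 9 genes past the filter were called (limma; 1 higher and 1 lower had an unadjusted p under 0.05). Alox5, the 5-lipoxygenase that works with Alox5ap, had signals of 165.4, 305.6 and 260.8 against 160.4, 143 and 191.7, with overlapping genotypes and a log2 difference of -0.46 (SE 0.25). Lta4h, which makes leukotriene B4, had 0.50 (SE 0.15, limma adjusted p = 0.0515), and its other probe sets had 0.41 and -0.09. Ltc4s, which makes leukotriene C4, was below the filter, and is named after its values were seen. Its signals were 64.8, 165.9 and 133.1 on the NHE3+/+ arrays and 19.9, 18 and 13.6 on the NHE3-/- arrays, a log2 difference of -1.59. In the limma fit without a filter its SE was 0.36 and its adjusted p = 0.0328.

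Alox5ap, Alox5 and Ltc4s are also known from tuft cells, the chemosensory cells of the gut epithelium, and from mast cells and other myeloid cells. Of 9 tuft cell markers past the filter, 3 fell and 0 rose, and 6 lower and 0 higher had an unadjusted limma p under 0.05. Of 12553 genes represented by 1 probe set, 6.38% were called higher and 7.51% lower, the background for every marker list here. The share of all genes at an unadjusted limma p under 0.05 is not given. The summed signal of the tuft list ran from 1812 to 2250 on the NHE3+/+ arrays and from 1217 to 1394 on the NHE3-/- arrays. Dclk1, a kinase that marks tuft cells, fell by 0.81 on the log2 scale (SE 0.19, limma adjusted p = 0.0205), Avil by 0.84 (SE 0.24, adjusted p = 0.0484) and Rgs13 from 430.5 ± 108 to 138.9 ± 65.2 in mean signal (SD, n = 3 each; adjusted p = 0.0101). Pou2f3, the transcription factor that defines these cells, had signals of 68 to 210.8 and 115.5 to 175 in the 2 genotypes, with overlap. Il25, Gfi1b and Hmx2 of this list were below the filter. Of 6 mast cell markers past the filter 2 rose and 1 fell, with sums of 1893 to 2167 in NHE3+/+ and 2148 to 3232 in NHE3-/- colon. Mcpt1 rose from a mean of 115 to 958 (limma adjusted p = 0.000261) and Mcpt2 from 148 to 661 (limma adjusted p = 0.000209). Kit, the brightest of the list on the NHE3+/+ arrays, fell from 1216 to 548 (limma adjusted p = 0.00408). Of 10 macrophage markers 0 were called (limma; 0 at an unadjusted p under 0.05), with sums of 3218 to 6315 and 3059 to 3953. The only eosinophil marker past the filter, Siglecf, was not called, Prg2, Epx, Ccr3 and Il5ra were below the filter, and the list summed to 181 to 257.8 and 119.3 to 217. The part of these cells in the values of Alox5ap, Alox5 and Ltc4s was not tested.

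**Figure D4:**
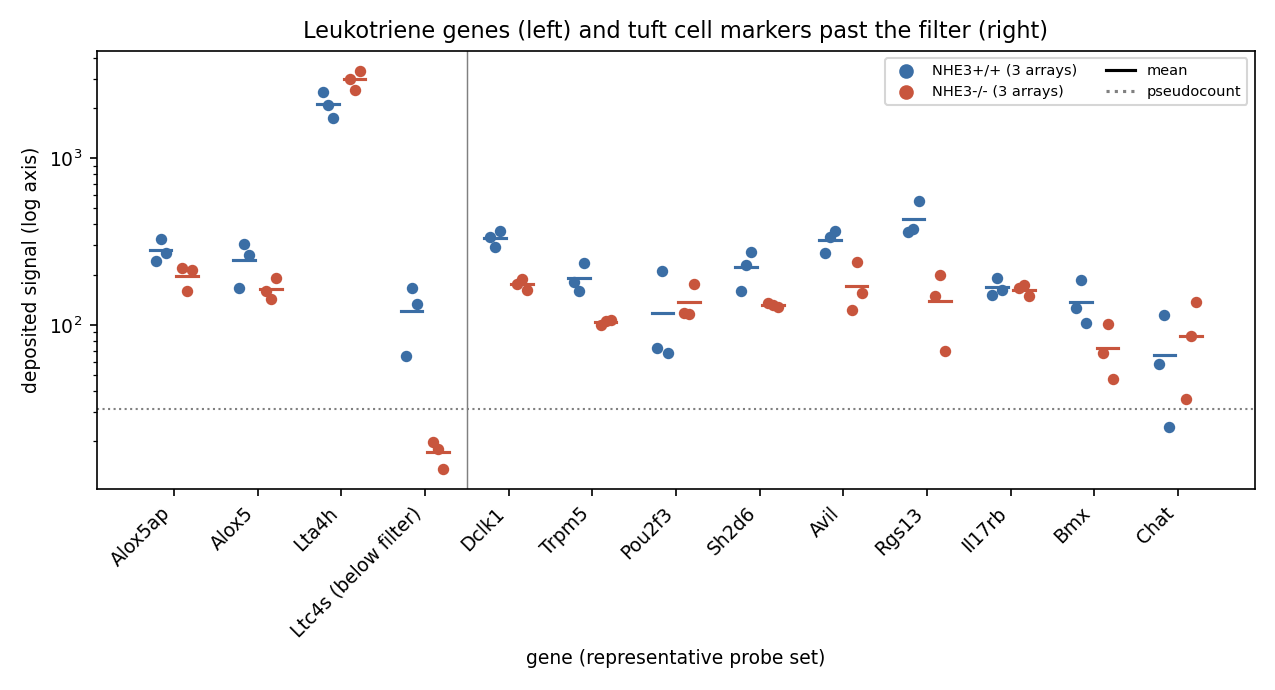
Deposited signal (log axis) of the leukotriene genes Alox5ap, Alox5, Lta4h and Ltc4s and of the 9 tuft cell markers past the filter on the 3 NHE3+/+ and 3 NHE3-/- arrays; lines are genotype means and the dotted line is the pseudocount. All NHE3-/- arrays lie below all NHE3+/+ arrays for Alox5ap, Ltc4s and 6 of the 9 tuft markers, including Dclk1 and Rgs13. For all probe sets tested, 20.1% were wholly lower.

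Markers of other cells also moved beside the phospholipases. Of 11 goblet and deep crypt secretory markers, 3 fell and 0 rose (limma; 1 higher and 5 lower at an unadjusted p under 0.05), with sums of 304136 to 366665 and 275928 to 337068. Of the 4 genes of the Paneth cell list past the filter 1 rose and 2 fell, with sums of 15966 to 22308 and 2927 to 6362. Ang4, an antimicrobial ribonuclease, made up most of the NHE3+/+ sums. Without it they were 3347, 5701 and 3529 on the NHE3+/+ arrays and 4640, 2449 and 2366 on the NHE3-/- arrays, which overlap. Lyz1 made up most of what was left. Itln1 fell from a mean of 699 to 83.1 (limma adjusted p = 0.000698), and Mmp7 rose from 157 to 440 (limma adjusted p = 0.0466). Whether the colon samples held Paneth cells was not tested. Of 3 neutrophil markers past the filter 1, S100a8, rose, and Mpo, Elane, Camp, Csf3r, Cxcr2, Mmp8 and S100a9 were below the filter. The list summed to 379 to 539.3 and 1170 to 3577, and S100a8 made up most of the NHE3-/- sums. Its signals were 59, 46.2 and 41.2 on the NHE3+/+ arrays and 3034, 717.7 and 1356 on the NHE3-/- arrays. The NHE3+/+ signals all lay under the level of the filter, 60.2, so S100a8 passed the filter only through the NHE3-/- arrays. Ngp and Mmp9, the other markers past the filter, overlapped between genotypes. Of 12 markers of absorptive cells 6 were called higher and 0 lower (limma; 1 lower at an unadjusted p under 0.05), with sums of 218311 to 273361 and 272558 to 337496. Of 4 adipocyte markers 1 rose and 3 fell, with sums of 1605 to 6088, highest on NHE3+/+ array 2, and 766.1 to 1374. Of 8 B and plasma cell markers 1, Fcer2a, fell and 0 rose, and 5 lower and 1 higher had an unadjusted limma p under 0.05. Their median log2 difference was -1.02, but the sums overlapped, at 6818 to 8679 and 6566 to 10762. Jchain, the brightest of the list on every array, was higher on all NHE3-/- arrays, with means of 4492 and 7013 (limma adjusted p = 0.0574). The lists for smooth muscle, fibroblasts, endothelium, mesothelium, squamous epithelium, pancreatic acinar cells, T cells and sex transcripts had 0 called representatives each (limma). At an unadjusted limma p under 0.05, 1 pancreatic marker and 2 sex transcripts were lower and 0 of the others differed. The Xist representative had signals of 207.7, 175.6 and 142.4 against 1562, 1405 and 80.8. The Xist probe set described earlier is a different one and was called (log2 difference 4.08, SE 1.17, limma adjusted p = 0.0475). The part of any of the listed cells in the phospholipase values was not tested.

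In the last group, of epoxygenases, omega-hydroxylases and epoxide hydrolases, 2 of 10 genes rose and 1 fell. Cyp4f16 rose from 2178 ± 188 to 5685 ± 774 (SD, n = 3 each), by 1.37 (SE 0.12, limma adjusted p = 8.3e-05), and Cyp4f14 from 2310 ± 198 to 5306 ± 899, by 1.18 (SE 0.14, limma adjusted p = 0.000448). Both belong to the family that hydroxylates and so inactivates leukotriene B4 and related fatty acids. Cyp2c65, an intestinal epoxygenase, fell by 0.64 on the log2 scale (SE 0.13, limma adjusted p = 0.0101), a call that was lost without the mean-variance trend (limma adjusted p = 0.0815, and from 0.00357 over the 15 settings). Members of these P450 families have closely related sequences, so a probe set may read more than its own gene.

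Likeness of pattern was measured as Pearson's r of log2(signal + 31.4) over the 6 arrays, and the difference between the genotypes is part of it. For Pla2g2a the 3 genes with the highest r were Nfkbia, the NF-kappaB inhibitor (0.997), Clcn2, a chloride channel (0.996), and Cdkn1a, a cell cycle inhibitor (0.995). Their own log2 differences were 0.58, 0.59 and 0.90, smaller than that of Pla2g2a, and NHE3-/- array 1 was the highest array for each, as for Pla2g2a. For the brighter Pla2g4c probe set they were Zfp282, a zinc finger protein (0.998), Srsf10, a splicing factor (0.997), and Nicn1 (0.996), with log2 differences of -0.40, -0.54 and -0.87. Over 6 arrays, high values were not confined to these genes. Among the tested probe sets naming 1 gene, 290 others had an r over 0.95 with Pla2g2a and 331 with Pla2g4c. The share that this makes is not given.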

How the data were processed

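Intensity values of the series' value table, deposited by the authors on a linear scale, were used as given. GCOS, Affymetrix software, is named without a version in the submitters' processing notes; its settings are not given in the sources used here. After trimming 2% from each end, every array has the same mean, and the array medians ran from 97.8 to 121.4. Arrays have no read depth, and their number limits the precision.

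Signals were analysed as log2(signal + 31.4), with a pseudocount equal to the 25th percentile over all arrays. The 64 array controls and probe sets under the 40th percentile of mean log2 value were left out of the test. NHE3-/- was compared with NHE3+/+ over 27024 probe sets in limma 3.58.1 (R 4.3.3; lmFit, eBayes with trend, two-sided, no term but genotype), with Benjamini-Hochberg adjustment over all of them and a threshold of 0.05. Errors of differences are limma's standard errors.

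Gene names came from the platform annotation, brought to current symbols by gene ID through a RefSeq table (34754 of 34958 probe sets matched). Probe sets naming several genes (932) or none (9211) named no gene. Members, pathway lists, 18 marker lists and the rule for names (all members, called pathway genes, Ptger1 to Ptger4, and the 3 genes most like the member of largest change each way) were chosen with earlier results of these data known. Other named genes were picked by position or after their values were seen. A gene is represented by its brightest probe set. Alternatives were other pseudocounts, filters and scalings, no trend, the replicate number as a block, and leaving out arrays.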

Additional observations from a re-analysis of the deposited data

How the results depend on the processing

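Of the 210 member differences recomputed, 205 moved by less than 1 SD of the replicates. These include the settings that changed only the filter, the trend or the block, which cannot move a difference in this design. Since the members were also chosen on this contrast, the count is a description of the settings and no support for the differences. Pathway genes called lower numbered 3, but 5 with a filter at the 60th percentile, 6 after quantile normalization, 1 without the mean-variance trend and 6 with NHE3-/- array 3 alone. They numbered between 2 and 5 when 1 array was left out, the 5 without NHE3-/- array 2 and the 2 without NHE3+/+ array 2 or NHE3-/- array 3. Those called higher, 9, ran from 7 to 11 over the settings with 1 probe set per gene. With all probe sets of each gene counted, 12 probe sets were higher. Over all probe sets, 1342 were called higher and 1685 lower. Without the trend these were 511 and 558. With medians set equal 1595 were higher and 738 lower, and with NHE3-/- array 3 alone 767 were higher. When 1 array was left out, 839 to 1211 were higher and 775 to 1385 lower. These fell by over 1.5 times for the higher count without NHE3-/- array 3 (839), and for the lower count without NHE3+/+ array 2 (843) or 3 (775) and without NHE3-/- array 1 (1011) or 3 (832). With NHE3-/- array 3 alone, it is assumed to vary like the NHE3+/+ arrays. The causes were not tested.

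Same-numbered arrays of the genotypes did not deviate together (correlations 0.026, -0.038 and 0.0034). That cannot exclude a pairing by number, which the labels do not state. With the replicate number as a block, 1156 probe sets were higher and 1384 lower, 9 and 4 of the pathway genes, and 2 and 1 of the member probe sets. Dim signals limit what can be said of Ptgs2, Alox15 and most of Ptges.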
